A study of Homo sapiens with 6 samples.

Results

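The genes described here are 47 cytokines, chemokines, IL6 family receptors, and NF-kB factors with their direct targets, taken by gene name from the 57914 genes of the deposited tables. All 47 were found, each in 1 row, and 37 had enough counts to be tested. They were measured by RNA sequencing in A375, an established human melanoma cell line grown in high-glucose DMEM with 10% FCS. Cells were stained with Aldefluor, a substrate that becomes fluorescent inside cells through the action of aldehyde dehydrogenases (ALDH), and the 5% with the brightest signal (ALDH_High, 3 libraries) were sorted apart from the 5% with the dimmest (ALDH_Low, 3 libraries). The labels name no drug and no engineered allele for either group, and both come from a single cell line.

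NF-kB is a family of dimeric transcription factors, built from RELA, RELB, REL and the processed products of NFKB1 and NFKB2, that wait in the cytoplasm bound to inhibitors such as NFKBIA until TNF, IL1 or Toll-like receptor signals release them. Their targets include chemokines, which draw leukocytes along a gradient, inflammatory cytokines, and feedback inhibitors such as TNFAIP3 (A20) that shut the pathway down. IL6, IL11 and LIF form a second family, which signals through the shared receptor chain IL6ST (gp130) to STAT3, with SOCS3 as its feedback inhibitor. Melanoma cells are known to secrete CXCL1 and CXCL8 by themselves, and inflammatory cytokines are known to favour dedifferentiated melanoma states.

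Upstream sequence is shown for 6 of the genes because all of them hold the kappaB consensus, the sequence that NF-kB dimers bind, while 1 of them rose in ALDH_High, 3 fell and 2 did not pass the test. The RefSeq table (GRCh38.p14) gave promoters for 36 of the 47 genes. It held none for CXCL16, CCL2, CCL5, IL15, IL18, LIF, CSF1, CSF3, NFKBIE, RELB and CEBPD. Each line below holds the 250 bases before a transcript start, 5′ to 3′ on the gene's strand. Where a gene had several starts, the first listed whose window held the consensus was used. By GENCODE positions the IL6 window lies inside the gene, and those of CXCL3, TNFAIP3 and NFKB1 reach into theirs. The bases of every kappaB consensus match on either strand are in capitals. The windows are chr4:73869143-73869392 (plus strand) for CXCL1, chr4:74099196-74099445 (minus) for CXCL2, chr4:74038690-74038939 (minus) for CXCL3, chr7:22726950-22727199 (plus) for IL6, chr6:137867009-137867258 (plus) for TNFAIP3 and chr4:102501109-102501358 (plus) for NFKB1.
CXCL1: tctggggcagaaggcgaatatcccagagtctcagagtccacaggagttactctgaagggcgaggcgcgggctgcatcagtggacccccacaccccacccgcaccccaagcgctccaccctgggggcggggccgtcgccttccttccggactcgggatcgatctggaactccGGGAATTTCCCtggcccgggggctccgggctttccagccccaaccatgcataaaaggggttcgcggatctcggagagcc
CXCL2: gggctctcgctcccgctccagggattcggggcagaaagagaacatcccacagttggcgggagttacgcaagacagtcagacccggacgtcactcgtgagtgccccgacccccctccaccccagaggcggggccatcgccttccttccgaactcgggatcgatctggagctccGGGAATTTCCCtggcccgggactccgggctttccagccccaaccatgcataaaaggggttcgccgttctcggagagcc
CXCL3: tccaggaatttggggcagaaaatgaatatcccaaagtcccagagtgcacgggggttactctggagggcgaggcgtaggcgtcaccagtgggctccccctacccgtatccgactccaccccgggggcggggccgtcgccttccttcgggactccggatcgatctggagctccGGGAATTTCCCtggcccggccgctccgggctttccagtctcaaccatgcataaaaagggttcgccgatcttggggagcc
IL6: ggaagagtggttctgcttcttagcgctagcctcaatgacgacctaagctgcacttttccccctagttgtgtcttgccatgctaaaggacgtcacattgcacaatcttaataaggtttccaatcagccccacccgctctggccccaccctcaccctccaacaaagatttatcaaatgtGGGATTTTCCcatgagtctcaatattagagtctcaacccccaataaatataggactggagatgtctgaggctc
TNFAIP3: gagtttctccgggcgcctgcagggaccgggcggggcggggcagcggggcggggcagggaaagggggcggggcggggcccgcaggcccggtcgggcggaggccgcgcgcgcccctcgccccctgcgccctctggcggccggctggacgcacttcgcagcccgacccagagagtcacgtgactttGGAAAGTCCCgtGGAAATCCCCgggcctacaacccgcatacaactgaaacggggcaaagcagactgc
NFKB1: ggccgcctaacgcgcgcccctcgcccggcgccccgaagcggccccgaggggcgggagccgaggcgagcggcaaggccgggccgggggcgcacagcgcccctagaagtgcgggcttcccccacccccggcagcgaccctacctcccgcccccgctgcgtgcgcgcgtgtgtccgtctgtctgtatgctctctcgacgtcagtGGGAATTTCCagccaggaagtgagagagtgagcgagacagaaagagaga

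The 3 chemokine windows held the same capital letters, formed by overlapping matches on both strands. The run ended 68 bases before the start in CXCL1, 67 in CXCL2 and 68 in CXCL3. In a global alignment CXCL1 shared 197 of 250 bases with CXCL2 (78.8%) and 210 with CXCL3 (84.0%), and CXCL2 shared 196 with CXCL3 (78.4%). The match ended 63 bases before the start in IL6, the nearer of 2 matches 45 bases before it in TNFAIP3, and the match 39 bases before it in NFKB1. Of the 36 genes with a promoter, 18 (50%) held the consensus in the window of at least 1 start, against 11.8% of all 27305 genes in the table and 9.96% of its 35116 promoters. Direct NF-kB targets were part of the choice of genes, which favours a high share, so the difference is no result of these data. Those 18 comprised 1 of the 4 genes with a promoter that were higher in ALDH_High and 6 of the 9 that were lower. They also held 5 of the 15 tested genes that did not pass and 6 of the 8 too low to be tested. The consensus thus stood before genes of every class, in differing shares that were not tested. Over all genes the AP-1 motif TGANTCA was present in 8.06% and in 4 of the 36 (CXCL8, CXCL11, IL1A and IL11). The C/EBP motif TTNNGNAA was present in 38.1% of all genes and in 15 of the 36, and the interferon response element consensus in 3.71% and in 5 of the 36, in each case on either strand. Motifs may overlap each other, and a match in these letters is a description and not a measured binding site.

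Total counts lay between 26692868 and 37830603 per library, so that 3 counts, the level treated here as not distinguishable from 0, corresponded to 0.0793 to 0.112 CPM, the count scaled by library size. ALDH_High library 1 stood apart from ALDH_High libraries 2 and 3 on the second principal component (14.5% of the variance). ALDH1A3, an enzyme of the class that Aldefluor reads, had 683, 1149 and 1088 CPM in ALDH_High libraries 1 to 3 and 345, 420 and 403 CPM in ALDH_Low. The melanocytic markers differed between the groups: in ALDH_High SOX10 (3.46-fold, edgeR adjusted p 3.14e-05), S100B (19.5-fold, 9.03e-05) and MIA (3.11-fold, 0.000327) were higher, whereas MITF (log2 fold change -0.92, 0.00667) and TFAP2A (-0.58, 0.0266) were lower. PMEL did not pass, DCT had at most 10 counts in any library, and MLANA and TYR had at most 3. White blood cell markers had little signal: PTPRC had at most 4 counts, CD2, MS4A1, NKG7, GZMB and HBB had 0 in all libraries, and the 16 markers summed to 3.42 to 7.64 CPM in ALDH_High and 3.36 to 4.57 CPM in ALDH_Low. Of the 4 that could be tested, LYZ was higher in ALDH_High and CD14 (0.224 against 0.913 CPM) and FCER1G were lower. Of 8 fibroblast and endothelial markers, 7 were tested and 6 did not pass. PDGFRB was lower in ALDH_High (log2 fold change -0.80 with SE 0.17, edgeR adjusted p 0.00693). The part of the melanocytic, white blood cell, fibroblast and endothelial markers in the cytokine differences was not tested. The labels do not say whether the libraries of a group came from separate cultures or sorts, so the p-values measure the spread between these libraries, which may be technical.

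Of the 37 genes tested, 19 (51.4%) passed an adjusted p of 0.05 (quasi-likelihood test of edgeR, adjusted by Benjamini-Hochberg over 17047 genes), against 20.6% of all genes. The direction was mostly down: 14 (37.8%) were lower in ALDH_High, against 9.83% of all genes, and 5 (13.5%) were higher, against 10.8%. The genes were chosen with earlier results of these data known, so these shares are described and were not tested as a set. IL6, IL1B, CSF2, CCL2 and TNFAIP3 fell the most, each by more than 2 on the log2 scale, whereas CXCL16, LIFR, IL1A, NFKB1 and STAT3 rose. The median log2 fold change (ALDH_High over ALDH_Low) was -0.41 over the 37 genes and -0.01 over all genes. Because these are bulk RNA values, fewer cells that express a gene and less RNA per cell cannot be told apart. The groups did not overlap in 21 of the 37 genes (56.8%; 37.8% of all genes), namely the 19 that passed and CCL28 and RELB. With 3 libraries against 3, the exact two-sided permutation test of any single gene cannot give a p below 0.1, and it gave 0.1 for each of those 21.

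**Figure D1:**
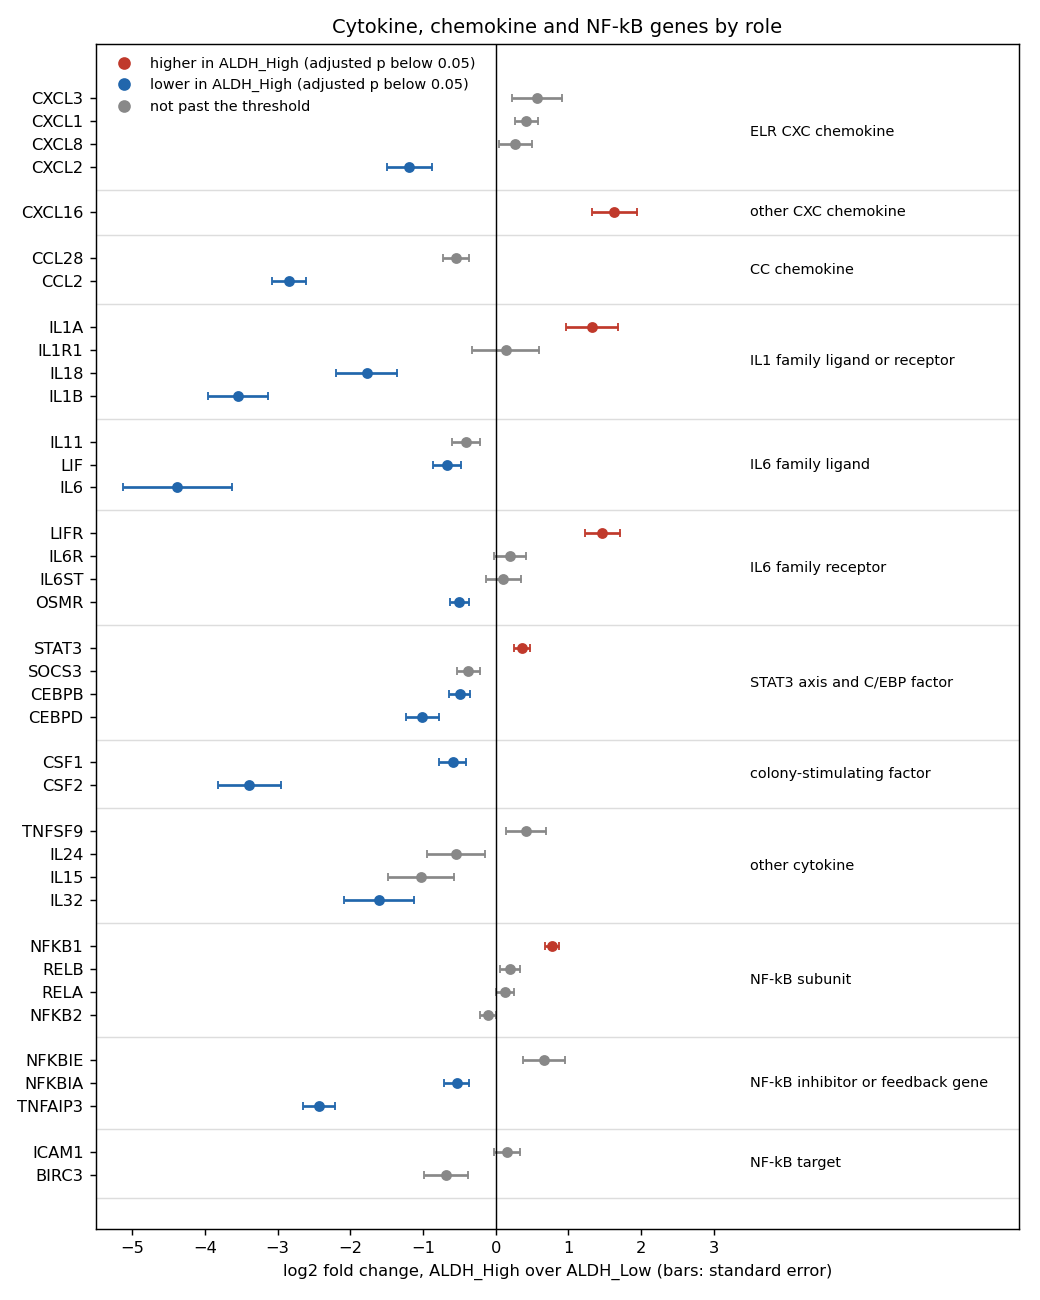
Log2 fold change of the 37 tested genes (x axis; positive is higher in ALDH_High), grouped by role, with bars for the standard error and colour for the edgeR call. The 14 lower genes reach -4.38 (IL6), while the 5 higher genes stay at or under 1.63 (CXCL16).

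The CXC chemokines that carry the ELR motif attract neutrophils through CXCR1 and CXCR2, and of the 4 that could be tested only CXCL2 passed, with a fall in ALDH_High. CXCL1 was the most abundant chemokine RNA, at 66.1, 107 and 88.9 CPM in ALDH_High libraries 1 to 3 and 63.8, 64.9 and 67.0 CPM in ALDH_Low. Its groups overlapped, since ALDH_High library 1 lay below the highest ALDH_Low library, and it did not pass (edgeR adjusted p 0.0965, log2 fold change 0.42 with SE 0.16). Without that library the value was 0.60 with an edgeR adjusted p of 0.00419, and without ALDH_High library 2 it was 0.27. CXCL8 (IL-8) had 23.9, 36.9 and 17.9 CPM in ALDH_High, against 23.2, 21.5 and 20.4 CPM in ALDH_Low. The ALDH_Low libraries lay inside the range of the ALDH_High libraries (edgeR adjusted p 0.459, log2 fold change 0.27 with SE 0.23). CXCL3 did not pass either, at 1.75 ± 0.487 against 1.19 ± 0.341 CPM (SD, n = 3).

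CXCL2, a neutrophil attractant like its neighbours in the cluster, had 0.631, 0.926 and 0.938 CPM in ALDH_High, against 1.66, 2.14 and 1.94 CPM in ALDH_Low, so that every ALDH_Low library lay above every ALDH_High library. The log2 fold change was -1.19 (SE 0.30, edgeR adjusted p 0.0203), and the adjusted p was 0.0570, 0.0799 and 0.0636 without ALDH_High library 2, ALDH_Low library 2 and ALDH_Low library 3. CXCL1, CXCL2 and CXCL3 are close paralogs within the same cluster on chromosome 4 (GENCODE 44, GRCh38: CXCL1 at 73869393 to 73871308, CXCL3 at 74036589 to 74038807, CXCL2 at 74097040 to 74099196), so reads that fit more than 1 of them make these values uncertain. CXCL5 had 0 counts in all libraries and CXCL6 at most 1.

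Of the other CXC chemokines, CXCL16 was the only one with enough counts to be tested. CXCL16 (chromosome 17, 4733533 to 4739928) is made as a membrane-bound protein that binds the chemokine receptor CXCR6 on T cells and can also be shed. It had 7.85, 6.05 and 6.89 CPM in ALDH_High against 3.40, 1.64 and 1.58 CPM in ALDH_Low, a log2 fold change of 1.63 (SE 0.31, edgeR adjusted p 0.00439). All ALDH_High libraries lay above all ALDH_Low libraries, and the call was kept in every alternative run. Exons of MED11 and ZMYND15 overlap CXCL16 on the other strand, MED11 did not pass (log2 fold change -0.09, edgeR adjusted p 0.74) and ZMYND15 was too low to be tested. The interferon-induced chemokines CXCL10 and CXCL11, and CXCL12, the ligand of CXCR4, had 0 counts in all libraries.

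Among the CC chemokines CCL2 (MCP-1; chromosome 17, 34255274 to 34257208), which attracts monocytes, fell from a mean of 11.1 ± 2.74 CPM in ALDH_Low to 1.54 ± 0.112 CPM in ALDH_High (SD, n = 3). It had 1.42, 1.56 and 1.64 CPM in ALDH_High libraries and 10.2, 9.0 and 14.2 CPM in ALDH_Low libraries. The groups were far apart, with every ALDH_Low library at more than 5 CPM above every ALDH_High library. The log2 fold change was -2.85 (SE 0.24, edgeR adjusted p 3.47e-05), which is 7.19-fold lower in ALDH_High. CCL28, a mucosal chemokine, did not pass (4.87 ± 0.125 against 7.14 ± 0.628 CPM, SD, n = 3; edgeR adjusted p 0.0587, log2 fold change -0.55 with SE 0.18). Neither CCL5 nor CCL20 exceeded 10 counts in a library, and they were not tested.

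Per transcript length, on the scale of the deposited TPM values, CXCL1 made up 72.6 ± 4.60% of the summed TPM of the 14 chemokines in ALDH_High and 60.3 ± 1.48% in ALDH_Low (SD, n = 3). CCL2 made up 2.03 ± 0.363% and 15.7 ± 3.15%. CXCL8 took similar shares, 18.1 ± 4.38% and 16.8 ± 1.65%. The shares of CXCL1 and CCL2 did not overlap between the groups (exact two-sided permutation p = 0.1, the smallest possible), whereas those of CXCL8 did (p = 0.6 by the same exact test). As shares of 1 total they are not independent of each other.

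**Figure D2:**
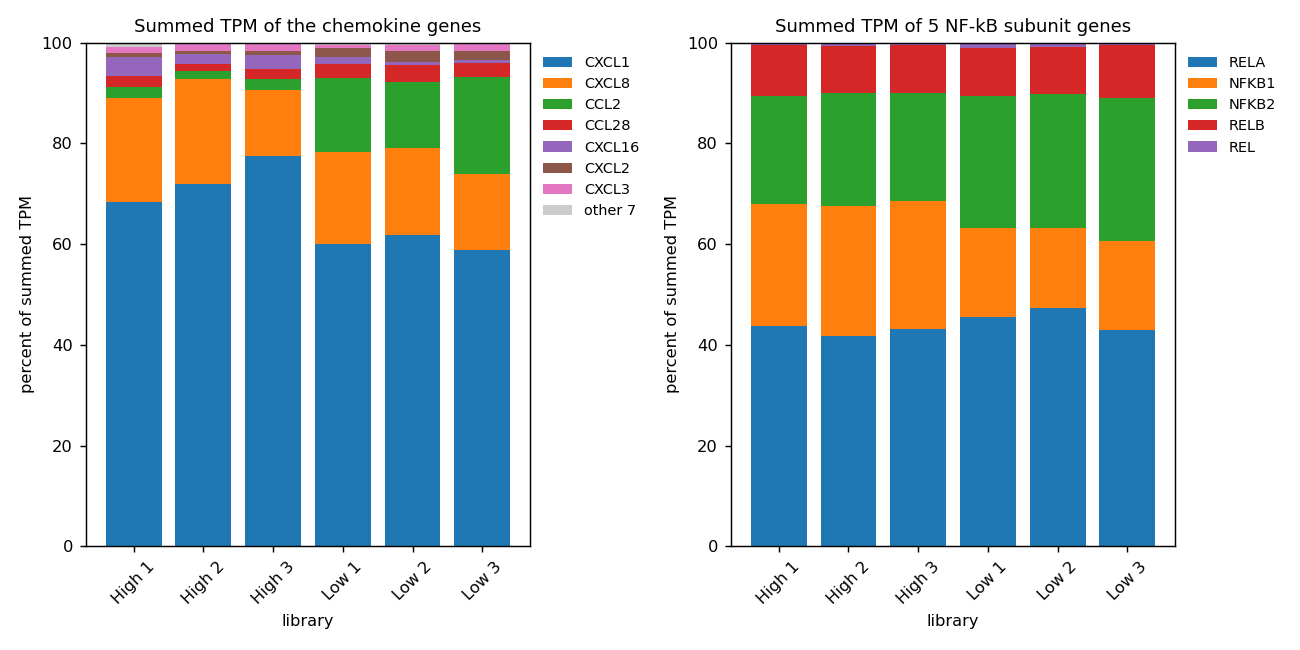
Share of each gene in the summed TPM (y axis, percent) of 14 chemokine genes (left) and 5 NF-kB subunit genes (right) in each of the 6 libraries (x axis). In the ALDH_Low libraries CCL2 takes between 13.2% and 19.2% of the chemokine TPM, against 1.61% to 2.26% in ALDH_High, and NFKB1 takes a smaller share of the subunits.

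The IL1 family went in both directions. IL1B (chromosome 2, 112829751 to 112836816), a secreted cytokine made as an inactive precursor, had 0.631, 0.376 and 0.498 CPM in ALDH_High, against 9.26, 4.18 and 4.03 CPM in ALDH_Low. ALDH_Low library 1 was the highest, and the lowest ALDH_Low library was still several times above every ALDH_High library. The log2 fold change was -3.55 (SE 0.41, edgeR adjusted p 0.000238), which is 11.7-fold lower in ALDH_High. IL1A, beside it on chromosome 2 (112773925 to 112784493), encodes the sister cytokine that acts as an alarmin, and it rose: 3.43, 2.58 and 1.85 CPM in ALDH_High against 1.24, 0.636 and 1.22 CPM in ALDH_Low. The log2 fold change of IL1A was 1.33 (SE 0.36, edgeR adjusted p 0.0258), and its adjusted p was above 0.05 for 4 of the 6 libraries when left out (without ALDH_High library 1, ALDH_High library 2, ALDH_Low library 2 or ALDH_Low library 3, with edgeR adjusted p up to 0.0866).

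IL18, a related cytokine that is likewise cut by caspase-1, fell. It had 2.48, 1.30 and 1.76 CPM in ALDH_High, against 10.4, 3.35 and 5.03 CPM in ALDH_Low, where library 1 was again the highest. The log2 fold change was -1.78 (SE 0.42, edgeR adjusted p 0.0133), and it was -1.17 without ALDH_Low library 1 (edgeR adjusted p 0.0510) and -1.56 without ALDH_High library 2 (0.0568). The receptor gene IL1R1 was low in both groups, at 0.951 ± 0.261 and 0.875 ± 0.546 CPM (SD, n = 3), and did not pass (edgeR adjusted p 0.874).

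The list of other IL1 family receptors, antagonists and processing genes had 9 of its 18 genes high enough to test. Of these, 1 was higher and 4 were lower in ALDH_High, against 10.8% and 9.83% of all genes tested. IL1RAP, the accessory chain that IL1R1 and IL1RL1 need for signalling, rose from 8.68 ± 1.61 to 31.9 ± 5.68 CPM (SD, n = 3; edgeR adjusted p 9.78e-05, log2 fold change 1.88 with SE 0.19). IL1RL1 (ST2), the receptor of IL33, fell from 8.60 ± 2.89 to 0.586 ± 0.587 CPM (edgeR adjusted p 0.000747, log2 fold change -3.95 with SE 0.55). IL18R1, the ligand-binding chain for IL18, fell from 4.20 ± 0.615 to 1.02 ± 0.227 CPM (edgeR adjusted p 0.000608, log2 fold change -2.04 with SE 0.28). The inflammatory caspases CASP4 (edgeR adjusted p 0.00101, log2 fold change -0.97 with SE 0.14) and CASP1 (edgeR adjusted p 0.00362) were also lower. CASP1 had at most 3 counts in every ALDH_High library and was at least 5.34-fold lower there, computed against 3 counts per library. CASP1 was named outside the rule of the 3 smallest p after its values were seen.

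Of the IL6 family ligands, IL6 itself (chromosome 7, 22725884 to 22732002) was barely present in ALDH_High. Its counts there were 4, 0 and 5, and in ALDH_Low they were 129, 26 and 57. Scaled, these were 0.158, 0 and 0.147 CPM against 3.35, 0.870 and 2.05 CPM, with no overlap and a wide spread among the ALDH_Low libraries. The fitted log2 fold change of IL6 was -4.38 (SE 0.75, edgeR adjusted p 0.00241). With so few counts in ALDH_High its size is imprecise, from -4.83 to -3.74 in the fits that left out a library. Exons of IL6-AS1 and STEAP1B overlap IL6 on the other strand, of which IL6-AS1 was too low to be tested and STEAP1B did not pass (edgeR adjusted p 0.483).

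LIF and IL11 were the abundant ligands of this family. LIF, which signals through LIFR and IL6ST, had 39.2, 66.6 and 45.7 CPM in ALDH_High, against 84.3, 90.6 and 66.9 CPM in ALDH_Low. The groups came within 1 CPM of each other without overlapping, and the log2 fold change was -0.67 (SE 0.19, edgeR adjusted p 0.0342). The call was lost without ALDH_High library 1 or 3 or ALDH_Low library 1 or 2, with edgeR adjusted p from 0.0768 to 0.121. IL11 had 46.0, 57.4 and 36.2 CPM in ALDH_High, against 51.6, 77.8 and 56.3 CPM in ALDH_Low, with overlap, and did not pass (edgeR adjusted p 0.180, log2 fold change -0.41 with SE 0.20). Exons of LIF-AS1 and LIF-AS2, both too low to be tested, overlap LIF on the other strand.

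The receptors of the family diverged. LIFR (chromosome 5, 38474668 to 38608354) rose, with 18.6, 16.8 and 22.9 CPM in ALDH_High, against 8.59, 7.90 and 4.49 CPM in ALDH_Low (edgeR adjusted p 0.00180, log2 fold change 1.47 with SE 0.24), and passed in every fit that left out a library. LIF itself fell, so LIF and this receptor chain moved in opposite directions in these libraries. OSMR, a receptor chain for oncostatin M, had 44.2, 47.3 and 45.6 CPM in ALDH_High, against 70.0, 69.7 and 54.1 CPM in ALDH_Low. The log2 fold change of OSMR was -0.50 (SE 0.13, edgeR adjusted p 0.0198). Its edgeR adjusted p was between 0.0645 and 0.0934 without ALDH_High library 2 or 3 or ALDH_Low library 1 or 2. On the other strand, LIFR overlaps LIFR-AS1 (log2 fold change 0.03, edgeR adjusted p 0.964) and OSMR overlaps RICTOR (-0.08, 0.866).

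The other 2 receptor genes did not pass, and their groups overlapped. IL6ST, the signalling chain that all of these cytokines share, had 68.0, 72.4 and 112 CPM in ALDH_High, against 86.6, 95.8 and 52.4 CPM in ALDH_Low (edgeR adjusted p 0.811, log2 fold change 0.11 with SE 0.24). IL6R, the IL6-binding chain, had 20.0, 13.6 and 13.6 CPM against 12.6, 17.7 and 10.9 CPM (edgeR adjusted p 0.594, log2 fold change 0.20 with SE 0.22). The direction of IL6ST changed to -0.14 without ALDH_High library 3 and to -0.11 without ALDH_Low library 3.

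Downstream of these receptors STAT3, the transcription factor they activate, was slightly higher: 109, 95.0 and 94.8 CPM in ALDH_High against 74.6, 82.5 and 75.0 CPM in ALDH_Low (edgeR adjusted p 0.0414, log2 fold change 0.37 with SE 0.11). The 2 groups did not overlap, but the call was kept only without ALDH_High library 1 among the fits that left out a library, with edgeR adjusted p up to 0.124 in the other 5. SOCS3, the STAT3-induced feedback inhibitor, had 25.4, 20.1 and 19.7 CPM in ALDH_High, against 23.7, 32.2 and 28.9 CPM in ALDH_Low, with overlap, and did not pass (edgeR adjusted p 0.127, log2 fold change -0.38 with SE 0.16). Without ALDH_High library 1 SOCS3 passed, at -0.49 (edgeR adjusted p 0.0424).

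CEBPB and CEBPD, basic leucine zipper factors that act with NF-kB on cytokine promoters, both fell. CEBPB had 31.8, 23.4 and 29.7 CPM in ALDH_High, against 42.4, 36.7 and 40.4 CPM in ALDH_Low (edgeR adjusted p 0.0322, log2 fold change -0.50 with SE 0.14). CEBPD had 2.92, 2.49 and 2.20 CPM in ALDH_High, against 4.62, 4.78 and 5.90 CPM in ALDH_Low (edgeR adjusted p 0.0110, log2 fold change -1.01 with SE 0.23). In each gene every ALDH_Low library lay above every ALDH_High library. The call of CEBPB was kept only without ALDH_High library 1, with edgeR adjusted p up to 0.142 without any other library, and that of CEBPD reached 0.0503 without ALDH_Low library 3. Of the 4 other C/EBP family genes tested, DDIT3 (CHOP), which responds to ER stress, fell (edgeR adjusted p 0.00902, log2 fold change -0.69 with SE 0.15) and 3 did not pass. CEBPB-AS1 overlaps CEBPB on the other strand and did not pass (log2 fold change -0.23, edgeR adjusted p 0.677).

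Among the other 22 IL6 family and JAK-STAT genes, 19 were tested, of which 2 were lower and 16 did not pass. The share of all genes tested that were lower was 9.83%. The STAT-induced genes CISH (edgeR adjusted p 0.0248, log2 fold change -1.05 with SE 0.28) and PIM1 (-0.39, SE 0.12, edgeR adjusted p 0.0433) fell.

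All tested colony-stimulating factors fell. CSF2 (GM-CSF; chromosome 5, 132073789 to 132076170), which stimulates granulocytes and macrophages, had 0.592, 0.232 and 0.205 CPM in ALDH_High, against 3.76, 2.51 and 4.24 CPM in ALDH_Low. That is 10.5-fold lower in ALDH_High (edgeR adjusted p 0.000418, log2 fold change -3.39 with SE 0.43), with each ALDH_Low library above each ALDH_High library. CSF1 (M-CSF), the main growth factor of macrophages, changed less, with 12.1, 9.20 and 10.1 CPM in ALDH_High, against 19.1, 13.9 and 14.2 CPM in ALDH_Low (edgeR adjusted p 0.0428, log2 fold change -0.59 with SE 0.18). The call of CSF1 was kept only without ALDH_High library 1, with edgeR adjusted p from 0.0569 to 0.180 without any other library. CSF3 (G-CSF) had 0 counts in all libraries.

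Of the remaining cytokines only IL32, a proinflammatory cytokine, passed, at a very low level: 7, 4 and 4 counts in ALDH_High and 16, 17 and 15 in ALDH_Low (edgeR adjusted p 0.0410, log2 fold change -1.61 with SE 0.49). With so few counts the call of IL32 was kept only without ALDH_High library 1 among the fits that left out a library, with edgeR adjusted p up to 0.168 in the other 5. An exon of the small RNA gene RNU1-125P overlaps IL32 on the same strand. IL24, an IL10 family cytokine first described in melanoma cells, varied more within groups than between them, at 16.7, 39.5 and 31.1 CPM in ALDH_High, against 17.9, 54.4 and 55.1 CPM in ALDH_Low. Library 1 was the lowest of each group, and IL24 did not pass (edgeR adjusted p 0.402, log2 fold change -0.54 with SE 0.40). TNFSF9 (4-1BB ligand), a costimulator of T cells, had 35.9, 16.1 and 20.2 CPM against 21.8, 14.0 and 18.1 CPM, where library 1 was the highest of each group, and did not pass (edgeR adjusted p 0.342). IL15, a growth factor of T and NK cells, did not pass (0.551 ± 0.173 against 1.10 ± 0.530 CPM, SD, n = 3; edgeR adjusted p 0.152). TNF had at most 1 count in any library.

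**Figure D3:**
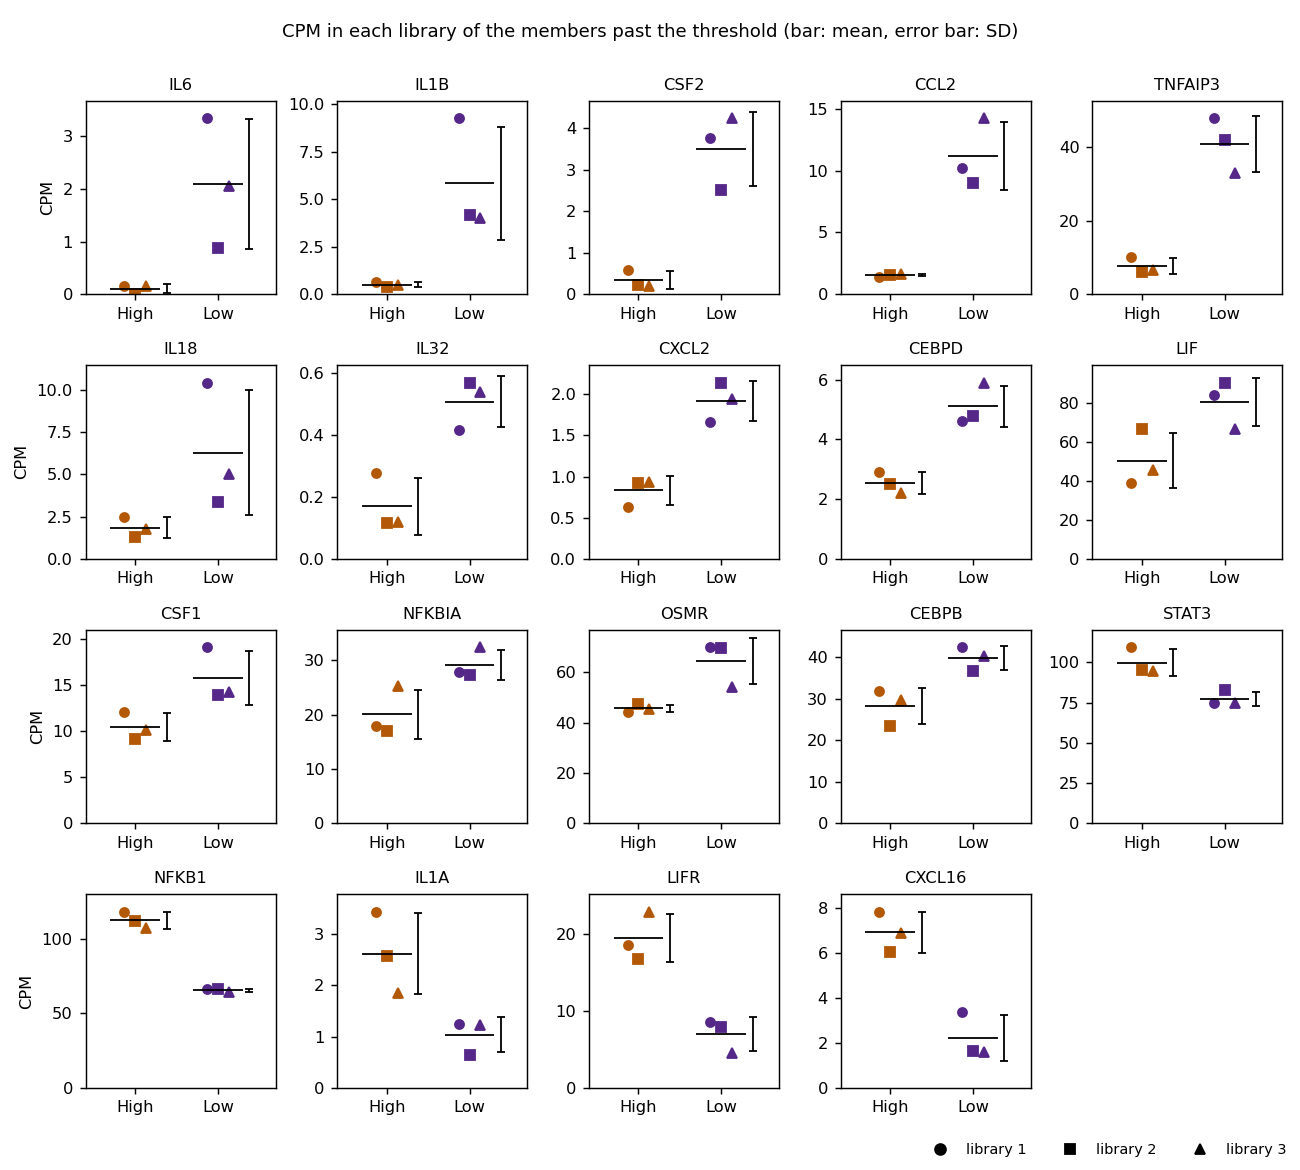
CPM (y axis, from 0) of the 19 genes past the threshold in each library, with ALDH_High on the left and ALDH_Low on the right of each panel, marker shape for the library number, a line for the mean and a bar for the SD (n = 3). In all 19 panels the groups do not overlap, and ALDH_Low library 1 is the highest of all for IL6, IL1B, IL18, TNFAIP3, CSF1, OSMR and CEBPB.

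Of the 4 NF-kB subunit genes only NFKB1 passed. NFKB1 (chromosome 4, 102501330 to 102617302), which encodes p105 and its product p50, had 118, 112 and 108 CPM in ALDH_High, against 66.3, 66.2 and 64.6 CPM in ALDH_Low. The libraries within each group were close together, and NFKB1 was 1.71-fold higher in ALDH_High (edgeR adjusted p 0.000482, log2 fold change 0.78 with SE 0.10), a call kept in every alternative run with log2 fold changes from 0.73 to 0.83. RELA (p65), the main activating subunit, had 142, 120 and 122 CPM in ALDH_High, against 113, 132 and 105 CPM in ALDH_Low, with overlap (edgeR adjusted p 0.521, log2 fold change 0.13 with SE 0.12). NFKB2 (p100 and p52) had 73.0, 67.7 and 63.7 CPM against 68.2, 78.6 and 73.2 CPM (edgeR adjusted p 0.569, log2 fold change -0.11 with SE 0.11). RELB had 24.8, 20.6 and 20.2 CPM against 18.0, 19.6 and 19.4 CPM (edgeR adjusted p 0.349, log2 fold change 0.20 with SE 0.14). Approximate 95% intervals, from the SE and a normal distribution, of the log2 fold change ran from -0.11 to 0.38 for RELA, from -0.32 to 0.11 for NFKB2 and from -0.06 to 0.47 for RELB, all below the NFKB1 interval of 0.58 to 0.98.

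On the TPM scale RELA was the most abundant subunit RNA, with 42.9 ± 1.01% of the summed TPM of the 5 subunits in ALDH_High and 45.3 ± 2.17% in ALDH_Low (SD, n = 3). NFKB1 made up 25.2 ± 0.814% and 17.0 ± 1.11%, and NFKB2 21.7 ± 0.521% and 27.1 ± 1.17%. The order of these 2 therefore differed between the groups, with NFKB1 above NFKB2 in every ALDH_High library and below it in every ALDH_Low library. Both shares had p = 0.1 in the exact permutation test (two-sided), which cannot go lower here.

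Of the inhibitors, TNFAIP3 and NFKBIA fell and NFKBIE did not pass. TNFAIP3 (A20; chromosome 6, 137867214 to 137883314), a ubiquitin-editing enzyme that ends NF-kB signalling and is itself an NF-kB target, had 10.1, 6.14 and 6.60 CPM in ALDH_High, against 47.9, 42.0 and 32.9 CPM in ALDH_Low. It was 5.41-fold lower in ALDH_High (edgeR adjusted p 4.71e-05, log2 fold change -2.44 with SE 0.22), with the groups far apart. WAKMAR2, a noncoding gene whose exons overlap TNFAIP3 on the other strand, was lower too (log2 fold change -2.70, edgeR adjusted p 0.000389), and if the counting did not use strand their reads cannot be told apart. NFKBIA (IkB alpha) fell less, from 27.8, 27.4 and 32.4 CPM in ALDH_Low to 18.0, 17.0 and 25.3 CPM in ALDH_High (edgeR adjusted p 0.0487, log2 fold change -0.54 with SE 0.17). The NFKBIA call was kept only without ALDH_High library 3 among the fits that left out a library, with edgeR adjusted p up to 0.192 in the other 5, and with DESeq2 size factors the adjusted p was 0.0521. NFKBIE (IkB epsilon) did not pass, with 21.8, 11.5 and 9.53 CPM in ALDH_High, against 8.27, 7.76 and 11.0 CPM in ALDH_Low. The value of NFKBIE was highest in ALDH_High library 1, and its log2 fold change was 0.66 with all libraries and 0.25 without that one (edgeR adjusted p 0.147 and 0.393).

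None of the target genes for survival and adhesion passed. BIRC3 (cIAP2), an inhibitor of apoptosis, had 1.98 ± 0.564 CPM in ALDH_High, against 3.21 ± 0.754 CPM in ALDH_Low (SD, n = 3; edgeR adjusted p 0.154). ICAM1, the leukocyte adhesion ligand, had 10.3, 10.5 and 9.76 CPM against 11.3, 8.20 and 8.02 CPM, with overlap (edgeR adjusted p 0.619, log2 fold change 0.15 with SE 0.18). VCAM1 had at most 1 count.

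Upstream of NF-kB, 36 of the 37 genes on the list of the signalling chain were tested. Of these, 31 did not pass, 4 rose and 1 fell, where 20.6% of all genes tested passed. The 4 that rose included TAB3, an adaptor of the kinase TAK1 (24.4 ± 0.774 CPM in ALDH_Low and 68.1 ± 19.9 CPM in ALDH_High, SD, n = 3; edgeR adjusted p 0.000432, log2 fold change 1.48 with SE 0.19). TLR4, the receptor for lipopolysaccharide, rose from 31.7 ± 3.03 to 55.9 ± 1.12 CPM (edgeR adjusted p 0.000776, log2 fold change 0.82 with SE 0.12), and BIRC2 (cIAP1) from 54.3 ± 6.41 to 89.4 ± 14.7 CPM (0.72, SE 0.15, edgeR adjusted p 0.00638). The adaptor TRAF5, named outside the rule of the 3 smallest p after its values were seen, was the other (edgeR adjusted p 0.0421, log2 fold change 0.54 with SE 0.16). IRAK2, a kinase of the IL1 and Toll-like receptor pathway, fell (edgeR adjusted p 0.0153, log2 fold change -1.12 with SE 0.27). The median log2 fold change of the list was close to 0, at -0.0037.

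Among 30 further feedback and target genes of NF-kB, 27 were tested, 9 were lower, 2 were higher and 16 did not pass. Over all genes tested, 9.83% were lower and 10.8% higher. TNFAIP2, a TNF-induced gene, fell from 133 ± 23.5 to 29.9 ± 3.06 CPM (SD, n = 3; edgeR adjusted p 1.42e-05, log2 fold change -2.16 with SE 0.15). PTX3, a secreted pattern-recognition protein, fell from 64.7 ± 3.61 to 23.8 ± 4.21 CPM (-1.44, SE 0.15, edgeR adjusted p 9.80e-05), and the interferon regulatory factor IRF1 from 29.0 ± 1.10 to 12.0 ± 1.79 CPM (-1.28, SE 0.15, edgeR adjusted p 0.000222). Against this, TRAF1, an adaptor of TNF receptors, rose from 2.09 ± 0.439 to 14.5 ± 4.78 CPM (2.79, SE 0.29, edgeR adjusted p 0.000113). TNFAIP6, a hyaluronan-binding protein, rose from 0.0903 ± 0.0504 to 1.39 ± 0.245 CPM (3.85, SE 0.47, edgeR adjusted p 0.000336). Its ALDH_Low counts were 5, 1 and 3, near the level not distinguishable from 0, so the size of this change is imprecise. NF-kB targets therefore included genes that fell and genes that rose, and the median of the list was -0.27.

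**Figure D4:**
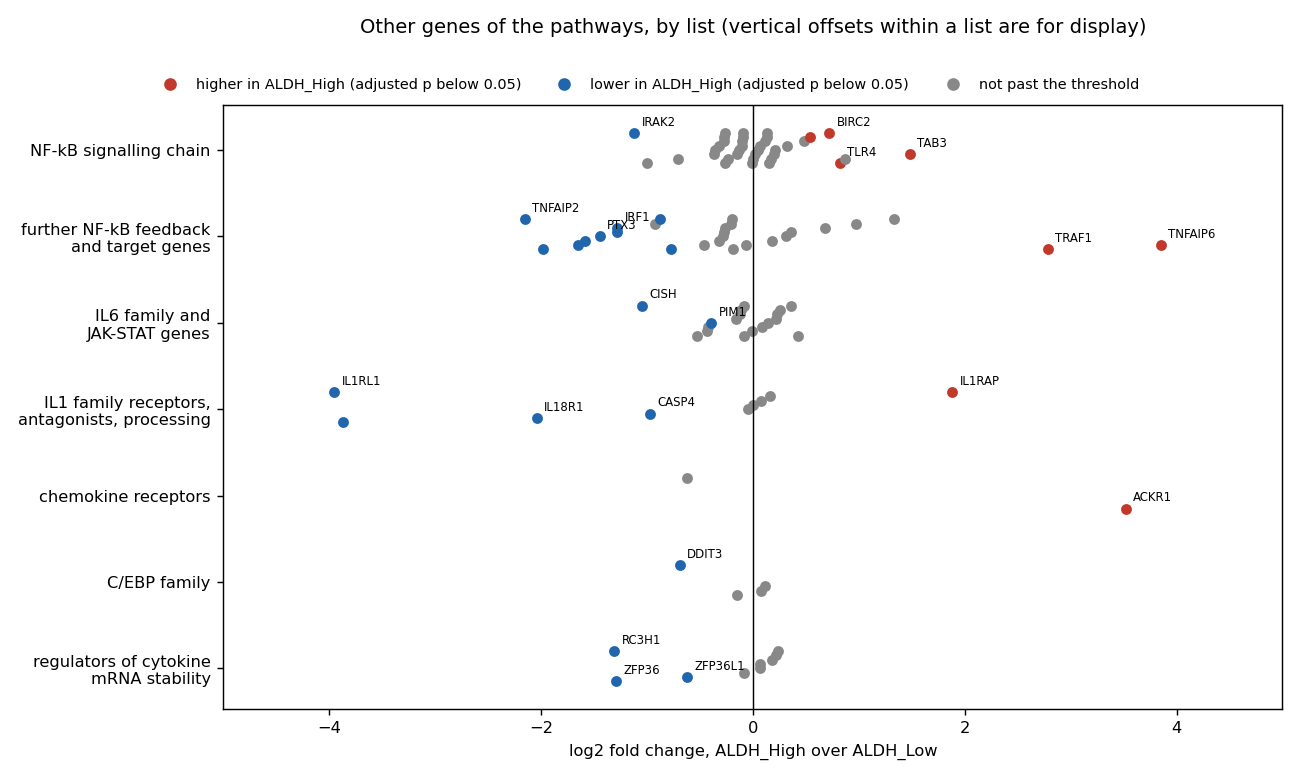
Log2 fold change (x axis; positive is higher in ALDH_High) of tested genes of 7 pathway lists (y axis), coloured by the edgeR call, with names for the called genes of smallest p in each direction. The signalling chain is centred near 0 with 31 of 36 genes not past the threshold, while 9 of 27 further target genes are lower and 2 are higher. Of all genes tested, 20.6% are past the threshold, 10.8% higher and 9.83% lower.

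Of 9 genes that regulate the stability of cytokine mRNAs, all tested, 3 fell and 6 did not pass. Over all genes tested the share that fell was 9.83%. The list holds both factors that promote decay, such as ZFP36, and ELAVL1 (HuR), which is known to stabilise such mRNAs and did not pass (edgeR adjusted p 0.276). RC3H1 (Roquin-1) fell from 38.6 ± 3.95 to 15.6 ± 1.63 CPM (SD, n = 3; edgeR adjusted p 0.000137, log2 fold change -1.31 with SE 0.14), ZFP36 (tristetraprolin) from 56.8 ± 10.1 to 23.3 ± 8.47 CPM (-1.29, SE 0.24, edgeR adjusted p 0.00357) and ZFP36L1 by 0.62 on the log2 scale (SE 0.13, edgeR adjusted p 0.00864). The median of the 9 genes was 0.07.

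Chemokine receptor RNA was nearly absent. Of 20 receptor genes, 2 could be tested, and 11 had at most 3 counts in every library, 6 of them 0 in all. The neutrophil chemokine receptor CXCR1 had 0 counts and CXCR2 at most 4. ACKR1, an atypical receptor that binds many chemokines without signalling, rose from 0.159 ± 0.0679 to 1.93 ± 0.970 CPM (SD, n = 3; edgeR adjusted p 0.000912, log2 fold change 3.52 with SE 0.51). With ALDH_Low counts of 9, 3 and 4, the size of the ACKR1 change is imprecise.

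Immediate early and heat shock genes are known to respond to stress and handling. Of 15 such genes 4 were lower in ALDH_High and 1 was higher, against 9.83% and 10.8% of all genes tested. The higher one was EGR3 (edgeR adjusted p 0.000314, log2 fold change 1.62 with SE 0.20). The other 10 did not pass, among them FOS, JUN, EGR1 and the heat shock genes HSPA1A, HSPA1B and DNAJB1. ATF3 had 22.2, 15.1 and 23.5 CPM in ALDH_High, against 133, 43.7 and 92.3 CPM in ALDH_Low (edgeR adjusted p 0.00161, log2 fold change -2.15 with SE 0.34). DUSP1 (-1.42, SE 0.25, edgeR adjusted p 0.00310) and MYC (-0.86, SE 0.16, edgeR adjusted p 0.00374) fell as well, and so did JUNB, named outside the rule of the 3 smallest p after its values were seen (-0.79, SE 0.18, edgeR adjusted p 0.0104). The 15 genes summed to between 2145 and 4418 CPM in ALDH_High and between 3030 and 6629 CPM in ALDH_Low, so the summed levels overlapped. HSPA1A and HSPA1B had the largest CPM of the 15 in every library and weigh most in these sums. Gene by gene, the median log2 fold change of the 15 was -0.77, against -0.01 over all genes tested. The part of these 15 genes in the cytokine differences was not tested. Without ALDH_Low library 1, the library with the highest ATF3, 7 of the 14 lower genes were past the threshold. The log2 fold changes were -3.83 for IL6, -3.02 for IL1B, -2.89 for CCL2, -3.32 for CSF2 and -2.29 for TNFAIP3, which passed together with CXCL2 and CEBPD. IL18, IL32, LIF, CSF1, NFKBIA, OSMR and CEBPB did not pass in that fit, with edgeR adjusted p from 0.0510 to 0.180. Any such fit also has fewer libraries, and what the lost calls owe to that was not tested. Lower genes past the threshold also numbered 7 without ALDH_High library 2 and 7 without ALDH_Low library 2. They numbered 8 without ALDH_Low library 3, 9 without ALDH_High library 3 and 13 without ALDH_High library 1.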

How the data were processed

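Sorted A375 cells were profiled by RNA sequencing, with 3 ALDH_High and 3 ALDH_Low libraries grouped by their titles. A stranded mRNA kit (TruSeq) was used, per the labels' protocols. FastQC 0.11.3, STAR 2.5.1b, HTSeq 0.6.1, DESeq2 and the build GRCh38 are named in the submitters' processing notes, without a role, and whether counting used strand is not given in the sources used here. The authors deposited counts that are taken here, from the values, as estimated counts rounded to whole numbers before deposit. Per library, 133 to 177 genes have a count of 0 beside a TPM above 0. Those zeros do not show which tool made the counts or at which step they were rounded, and neither was tested. The authors also deposited TPM values, with gene lengths not stated.

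Rounded counts were filtered with edgeR's filterByExpr (17047 genes left), scaled by TMM and tested with edgeR 4.0.16 (two-sided quasi-likelihood test), with the group as the only term. CPM values use TMM-scaled library sizes for tested genes and total counts for the others and for summed lists. Standard errors were derived from the log2 fold change and its F statistic. A fold against a group with at most 3 counts in every library is a bound computed from 3 counts. Such limits cover counting error alone, as the labels name no molecular identifiers. The procedure was tested on simulated data with the same spread for all genes and changes only in genes above a minimum mean count. That test does not cover genes with few counts, such as IL6 and IL32. Positions are from GENCODE 44 (GRCh38), matched by Ensembl identifier, and promoters from RefSeq (GRCh38.p14).

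The members and gene lists were chosen with earlier results of these data known. Members past the threshold, or with a mean of at least 10 CPM in a group, are given in every library, and up to 3 genes of smallest p in each direction are named from each list; 1 gene of the IL6 family and JAK-STAT list is not reported here. Alternatives were DESeq2 size factors or upper-quartile factors, no low-count filter, a minimum of 10 counts per library, a replicate block, leaving out each library, DESeq2 1.42.0, and limma 3.58.1 on log2(TPM + 1) or log2(TPM + 0.1). Libraries of a group differed from each other by more than sampling noise (chi-square per degree of freedom between 13.7 and 56.9).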

Additional observations from a re-analysis of the deposited data

How the results depend on the processing

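Of the 19 genes past the threshold, CXCL16, CCL2, IL1B, IL6, CSF2, TNFAIP3 and NFKB1 passed in every alternative run (15 each, 14 for IL6 and CSF2, which the minimum of 10 counts removed), and none of the 19 changed direction. The other 12 were lost in at least 1 alternative. Of the 18 genes that did not pass, CXCL1, CCL28, IL11, IL24, NFKBIE and SOCS3 passed in at least 1. Low counts limit IL6, IL32, CSF2 and IL1B in ALDH_High.

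Against 14 lower and 5 higher genes, limma on log2(TPM + 1) gave 7 lower, on log2(TPM + 0.1) 8 lower, and on log2(TPM + 1) without a TPM filter 6 lower and 3 higher. An adjusted p below 0.01 left 5 and 3, and adding a minimum log2 change of 1 in size left 9 and 3, by construction. Leaving out a library gave 7 to 13 lower and 3 to 5 higher. Over all genes, 1838 higher and 1675 lower became 1155 and 851 in limma without a TPM filter, 1060 and 870 at an adjusted p below 0.01, and 1004 and 954 with that minimum change. In limma with a mean TPM of at least 1 the lower genes were 1047 with pseudocount 1 and 1051 with 0.1, and leaving out a library gave 1073 to 2049 lower and 1306 to 2172 higher. For limma the cause was not tested. The median log2 fold change of -0.41 was -0.24 with at least 10 counts in every library and -0.081 in limma without a TPM filter (42 genes tested), and it ran from -0.43 to -0.28 when a library was left out.

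Leaving out a library, CXCL8 ran from -0.041 (ALDH_High library 2) to 0.50 (ALDH_High library 3), IL1R1 from -0.11 to 0.77, and IL6ST from -0.14 to 0.28. IL1R1 was -0.04 without ALDH_High library 2, -0.11 without ALDH_Low library 1 and -0.08 without ALDH_Low library 3; IL6ST was -0.14 with ALDH_High library 3 left out and -0.11 with ALDH_Low library 3 left out. The causes were not tested; none of the 3 genes passed in these fits.

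With the replicate number as a block, 17 of the 19 genes passed and IL32 (adjusted p 0.0677) and STAT3 (0.0663) did not, while 3748 genes passed overall against 3513. Deviations of equally numbered libraries from their group means correlated at 0.15, 0.08 and 0.11. Each library correlated best with its own number, but the numbers were treated as names, not pairs.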
